A study of Homo sapiens with 8 samples.

Results

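The transcripts described here encode the cyclins and cyclin-dependent kinases (CDKs) that carry a cell from G1 through S phase and into mitosis. They are the D-type cyclin genes CCND1, CCND2 and CCND3 with CDK4 and CDK6, the E-type cyclin genes CCNE1 and CCNE2 with CDK2, and CCNA2 with CDK1. These 10 genes were found by their names among the 58735 genes of a read count table, and 9 of them were among the 14621 genes with enough counts to be tested. The labels of all 8 RNA-seq libraries name A549 cells, a widely used line from a human lung adenocarcinoma. In 4 of them the cells carried a lentiviral empty vector (EV), and in the other 4 a lentiviral vector that overexpresses Flag-tagged KRT19 (KRT19-OVE). Its product, keratin 19, forms intermediate filaments in epithelia. Cells of both groups were stably transduced, selected with puromycin and grown in RPMI-1640 medium with serum, so the groups share the virus, the drug and the medium. The purpose of the comparison was to learn which transcripts change when KRT19 is overexpressed.

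In the classical scheme, mitogens induce D-type cyclins, which bind CDK4 and CDK6 and start the phosphorylation of the retinoblastoma protein RB. RB then releases E2F factors, E-type cyclins with CDK2 carry the cell into S phase, cyclin A2 acts with CDK2 in S phase and with CDK1 later, and CDK1 with B-type cyclins drives mitosis. The proteins of this family are controlled to a large extent by phosphorylation, by inhibitors and by timed destruction, none of which a transcript count measures.

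No transcript of the group differed between EV and KRT19-OVE past the adjusted threshold of 0.05. Of the 9 tested members 0 passed, beside 0.00684% of all tested genes, which is 1 gene (edgeR quasi-likelihood test with Benjamini-Hochberg adjustment). At an unadjusted p under 0.05 there was 1 of 9, CCNE2, beside 5.41% of all tested genes. The 2 groups overlapped for each of the 9, so 0 of 9 were separated, beside 3.44% of all tested genes. A log2 fold change above 0, that is a higher level in KRT19-OVE, was seen for 7 of 9, beside 52.2% of all tested genes, and 3 of these 7 values lay within 1 SE of 0. Over the alternatives this count ranged from 5 of 9 to 8 of 9. No source states that the libraries of a group came from separate cultures, so every p-value measures the spread between these libraries, which may be technical.

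Libraries held between 14073065 and 17054364 counts in total. KRT19 had 1 to 5 counts in the EV libraries and 4353 to 5147 in the KRT19-OVE libraries, so the groups were separated by this gene in the direction of their labels, and the EV libraries held next to no KRT19, itself an epithelial keratin. The line named in the labels was checked against its markers, and several went against it. CDKN2A, CDKN2B and MTAP, which are deleted in A549, had 1328 to 1824, 466 to 659 and 653 to 870 counts per library. EPCAM and CDH1, both epithelial adhesion genes, had at most 3 and at most 1 counts, and the NRF2 target genes AKR1B10 and ALDH1A1 had at most 14 and at most 3, while KRT8, KRT18 and NQO1 had 2988 to 7518. Further markers of the line, KRT7, AKR1C1, AKR1C2 and GPX2, had at most 71 counts. The extraction text of the labels names retina, but 12 retinal marker genes summed to 1.35 to 2.65 CPM (counts scaled by the TMM method to a common library size) and SAG and RCVRN had 0 counts. The blood, vessel and fibroblast markers PTPRC, PECAM1, VWF, COL1A1 and COL3A1 summed to 4.33 to 5.42 CPM in EV and 3.04 to 5.31 CPM in KRT19-OVE. The cells are therefore called by their label only. Both groups showed this pattern.

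The genes are spread over the genome (GRCh38, coordinates of the count table). CCND1 lies at chr11:69641087-69654474 on the plus strand, CCND2 at chr12:4273772-4305350 (plus), and CCND3 at chr6:41934933-42050357 (minus). CDK4 lies at chr12:57747727-57756013 (minus) and CDK6 at chr7:92604921-92836594 (minus). CCNE1 is at chr19:29811898-29824308 (plus) and CDK2 at chr12:55966769-55972784 (plus). CCNA2 is at chr4:121816444-121823933 (minus) and CDK1 at chr10:60778331-60794852 (plus). These are all protein-coding genes, as is CCNE2.

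Promoter sequence from RefSeq (GRCh38.p14) was matched for 6 of the 10 members, with 10 start sites. Those of CCND1, CCND2, CCNE2 and CDK2 were not analysed here. Stretches from CCNA2, CDK1 and CDK4 are shown because their promoters hold textbook kinds of cell cycle element, and because CDK1 and CDK4 departed from their group means in opposite directions in 5 of 8 libraries. The capitals mark the element named, and positions are counted back from the RefSeq start. ATTGG is CCAAT read on the other strand.
CCNA2, CRE and CCAAT, chr4:121823935-121823964, minus strand, bases 81 to 52 before the start: TGACGTCAaggccgcgagcgctttcATTGG
CDK1, CCAAT and CHR, chr10:60778393-60778422, plus strand, bases 85 to 56 before the start: ggctctgATTGGctgcTTTGAAagtctacg
CDK1, E2F-type element, chr10:60778339-60778368, plus strand, bases 139 to 110 before the start: tttcctctttcTTTCGCGCtctagccaccc
CDK4, E-box pair, chr12:57752499-57752528, minus strand, bases 218 to 189 before the start: gtCACGTGtgatagcaacagatCACGTGgc
CDK4, E-box nearest the start, chr12:57752388-57752417, minus strand, bases 107 to 78 before the start: ggcggtCACGTGcccagaacgtccggcgtt

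The cAMP response element TGACGTCA, the core recognised by CREB and ATF factors, was present in 1.65% of 35116 promoters when the 250 bases before the start were searched on both strands. CCAAT, the box bound by NF-Y, was present in 32%. The cell cycle homology region (CHR), through which the DREAM and MYB-MuvB complexes act, was searched as TTTGAA (13.3% of promoters) and TTTAAA (11.3%). E2F-type elements were searched as TTTCCCGC (1.39%), TTTGGCGC (0.55%), TTTCGCGC (0.439%) and TTTGCCGC (0.49%). The E-box CACGTG, a site for MYC and other factors, was present in 6.34%, the AP-1 type element TGACTCA in 4.2% and the GC box GGGCGG in 42.6%. Among the members, the CRE was found in CCNA2, the E2F-type element in CDK1 and the E-box in CDK4, CHR letters in CDK1 and CCNE1, and CCAAT in CDK1, CCNA2 and CCND3. CDK6 held GC boxes and no other element searched. Within a window no match overlapped another, and 1 GC box of CDK1 lies in the windows of both its starts. A match describes the letters in the window and does not show that a factor binds there.

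The D-type cyclins and their kinases act first in the cycle, and CCND1 was their most abundant cyclin per kilobase of transcript. CCND1 stood at 629, 579, 594 and 583 CPM in EV 1 to 4 and at 548.9, 606, 644 and 595 CPM in KRT19-OVE 1 to 4. The KRT19-OVE libraries held both the lowest and the highest of the 8 values, and the groups overlapped. The means were 596 ± 22.9 CPM in EV and 599 ± 39.3 CPM in KRT19-OVE (SD, n = 4 each). KRT19-OVE over EV gave a log2 fold change of 0.0055 ± 0.052 (SE) and an adjusted p of 0.993 (edgeR). Its 95% interval ran from -0.10 to 0.12 on the log2 scale, which is a change between -6.96% and 8.31%.

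CCND3, the second D-type cyclin measured, was also close to level between the groups. It stood at 106, 107.5, 109 and 112 CPM in EV 1 to 4 and at 120.1, 98.5, 106.7 and 106 CPM in KRT19-OVE 1 to 4. KRT19-OVE 1 was the highest and KRT19-OVE 2 the lowest of all 8 libraries, so the EV values lay inside the range of the KRT19-OVE values. On the log2 scale the difference of KRT19-OVE from EV was -0.011 ± 0.059 (SE), with a 95% interval from -0.14 to 0.11 and an adjusted p of 0.984 (edgeR). CCND2, the third D-type cyclin, had 0 counts in all 8 libraries. A count of 0 allows up to 3 counts, or 0.176 to 0.213 CPM depending on the depth of the library, and this floor covers counting error only.

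The kinase partners of the D-type cyclins were both well expressed. CDK4 stood at 143, 156, 158 and 154 CPM in EV 1 to 4 and at 169, 153, 133 and 150.3 CPM in KRT19-OVE 1 to 4. KRT19-OVE 1 was the highest and KRT19-OVE 3 the lowest library, and the groups overlapped. The log2 fold change was -0.013 ± 0.064 (SE), with a 95% interval from -0.15 to 0.12 and an adjusted p of 0.982 (edgeR).

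CDK6, which forms the same kind of complex, stood at 209.7, 199.8, 174 and 194 CPM in EV 1 to 4 and at 184, 199, 223 and 192 CPM in KRT19-OVE 1 to 4. The lowest value was that of EV 3 and the highest that of KRT19-OVE 3, and the other 6 libraries lay between 184 and 209.7 CPM. The log2 fold change was 0.038 ± 0.065 (SE), with a 95% interval from -0.10 to 0.17 and an adjusted p of 0.961 (edgeR). Without replicate 3 of both groups, an alternative added after the data were seen, it was -0.070. CDKN2A, whose products include the inhibitor of these kinases p16 and the unrelated protein ARF, had as a whole gene a mean of 103.7 ± 6.42 CPM over the EV libraries and 102 ± 5.34 CPM over the KRT19-OVE libraries (SD, n = 4 each).

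**Figure D1:**
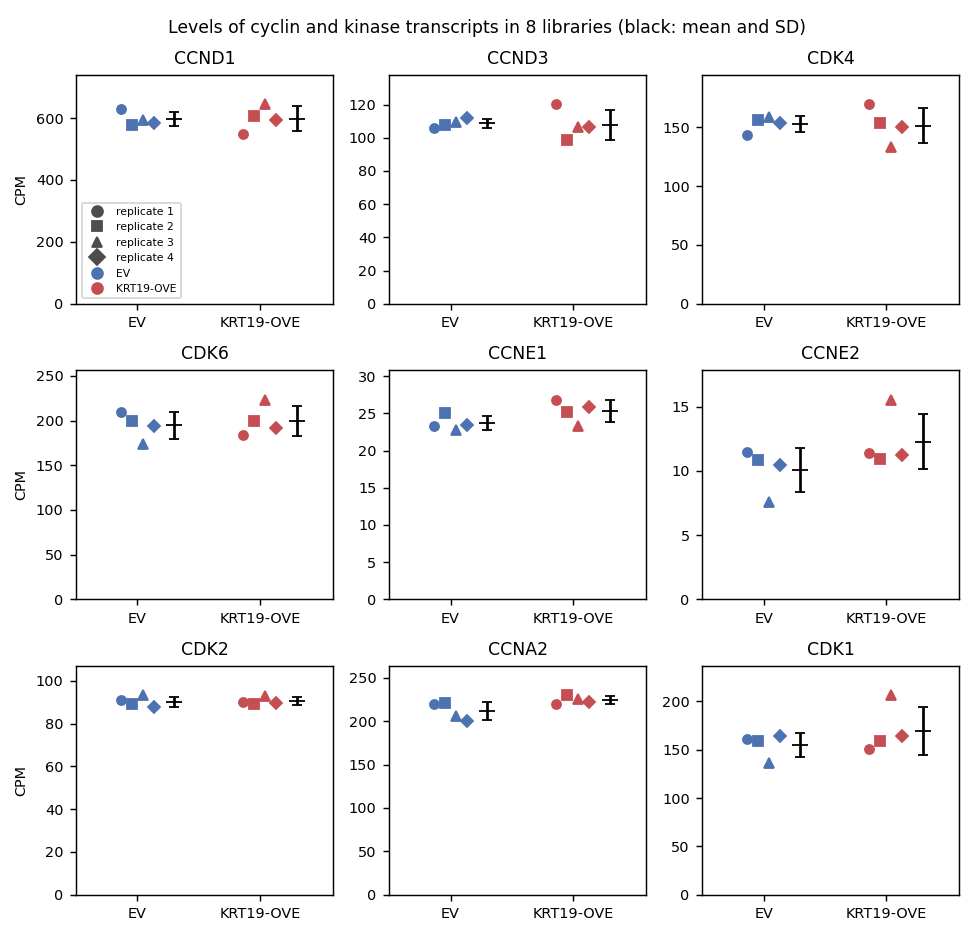
Levels of the 9 tested transcripts in each of the 8 libraries, in CPM on axes that start at 0, with 1 panel per gene and a marker shape per replicate number; black bars are the group mean and SD (n = 4). The groups overlap in every panel, and replicate 3 of each group is the library farthest from the other three for CDK1, CDK6 and CCNE2.

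CCNE2, an E-type cyclin that binds CDK2 at the entry into S phase, had the largest fold change and the fewest counts of the 9 tested members, 125 to 265 per library. It stood at 11.4, 10.8, 7.61 and 10.4 CPM in EV 1 to 4 and at 11.4, 10.95, 15.5 and 11.2 CPM in KRT19-OVE 1 to 4. EV 3 was the lowest and KRT19-OVE 3 the highest, and the other 6 libraries lay between 10.4 and 11.4 CPM in both groups. The means were 10.1 ± 1.70 CPM in EV and 12.3 ± 2.17 CPM in KRT19-OVE (SD, n = 4 each). This gave a log2 fold change of 0.29 ± 0.13 (SE), with a 95% interval from 0.0077 to 0.58, which is a change between 0.534% and 49.0%. The unadjusted p was 0.0447, rank 702 of the 14621 genes, and the adjusted p was 0.906 (edgeR). An exact permutation test over the 8 libraries (two-sided, smallest possible p = 0.0286) gave p = 0.143. The fold change moved to 0.16 without KRT19-OVE 3, to 0.18 without EV 3 and to 0.042 without both, and was not past an unadjusted p of 0.05 in these fits.

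CCNE1, the other E-type cyclin, was more abundant than CCNE2 per kilobase and varied less. It stood at 23.3, 25.0, 22.8 and 23.5 CPM in EV 1 to 4 and at 26.8, 25.2, 23.3 and 25.8 CPM in KRT19-OVE 1 to 4. In KRT19-OVE, 3 of 4 libraries were above every EV library, and KRT19-OVE 3 was not. The log2 fold change was 0.095 ± 0.069 (SE), with a 95% interval from -0.050 to 0.24 and an adjusted p of 0.911 (edgeR). The exact permutation test gave p = 0.114 (two-sided).

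CDK2, the kinase of the E-type cyclins, was the steadiest transcript of the group. It stood at 90.8, 89.1, 93.1 and 87.6 CPM in EV 1 to 4 and at 89.8, 88.9, 93.0 and 89.5 CPM in KRT19-OVE 1 to 4. All KRT19-OVE values lay inside the EV range. Its log2 fold change was 0.0030 ± 0.050 (SE), with a 95% interval from -0.10 to 0.11 and an adjusted p of 0.994 (edgeR).

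CCNA2, which acts from S phase up to mitosis, lay slightly higher in KRT19-OVE, within the spread between libraries. It stood at 219.6, 221, 206 and 200.5 CPM in EV 1 to 4 and at 219, 229.6, 225 and 223 CPM in KRT19-OVE 1 to 4. In KRT19-OVE, 3 of 4 libraries were above every EV library, and the lowest of the 8 was EV 4. The means were 212 ± 10.2 CPM in EV and 224 ± 4.33 CPM in KRT19-OVE (SD, n = 4 each). CCNA2 had a log2 fold change of 0.081 ± 0.048 (SE), with a 95% interval from -0.020 to 0.18 and an adjusted p of 0.906 (edgeR), and the exact permutation test gave p = 0.0857 (two-sided). Across the alternatives it lay between 0.055 and 0.10, always above 0, and with limma-voom and sample quality weights together the unadjusted p was 0.0361.

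CDK1, the mitotic kinase, varied more than any other member but CCNE2. It stood at 161, 159, 136 and 164 CPM in EV 1 to 4 and at 151, 159, 206 and 164 CPM in KRT19-OVE 1 to 4. As for CCNE2, EV 3 was the lowest and KRT19-OVE 3 the highest, and the other 3 libraries of each group spanned 159 to 164 and 151 to 164 CPM. The means were 155 ± 12.7 CPM in EV and 169.8 ± 24.8 CPM in KRT19-OVE (SD, n = 4 each). CDK1 had a log2 fold change of 0.13 ± 0.083 (SE), with a 95% interval from -0.044 to 0.31 and an adjusted p of 0.906 (edgeR), and the exact permutation test gave p = 0.457 (two-sided). It was -0.033 without replicate 3 of both groups.

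**Figure D2:**
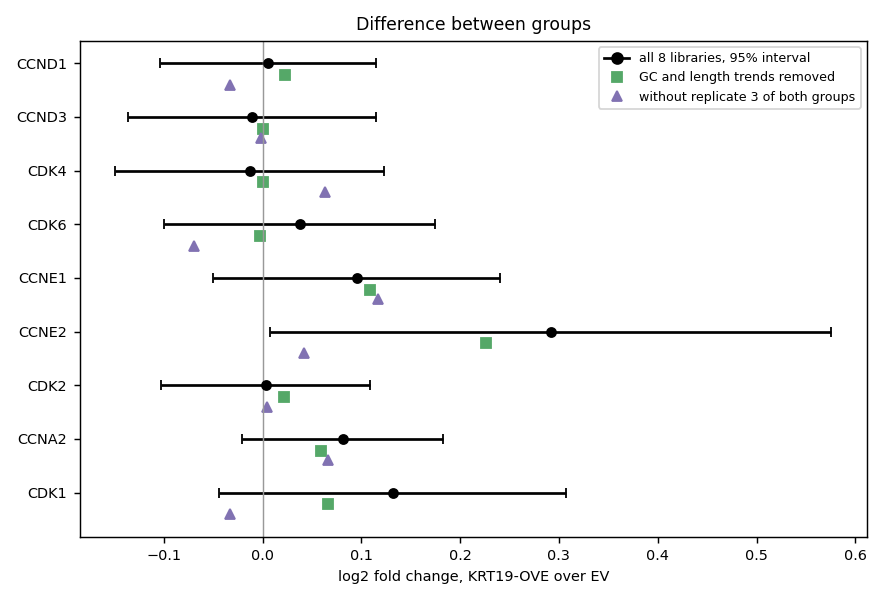
Log2 fold change of KRT19-OVE over EV for the 9 tested transcripts (x axis), with all 8 libraries and the 95% interval (black), with the trends of GC content and gene length taken out (green squares) and without replicate 3 of both groups (violet triangles). The interval of CCNE2, 0.0077 to 0.58, is the one that leaves out 0, and its value without replicate 3 is 0.042.

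Between genes, levels were compared as CPM per kilobase of the gene length in the count table, which is the length of all annotated exons. On this scale CCND1 was highest, at 123.7 ± 6.17, followed by CCNA2 at 78.0 ± 3.49, CDK4 at 48.0 ± 3.40, CDK1 at 41.3 ± 5.06 and CDK2 at 23.2 ± 0.506 CPM per kilobase (SD over 8 libraries). CCND3 followed at 18.7 ± 1.06, CDK6 at 16.1 ± 1.22, CCNE1 at 9.59 ± 0.564 and CCNE2 at 2.54 ± 0.490 CPM per kilobase. The ranges over the 8 libraries overlapped for 2 pairs of neighbours in this order, CDK4 with CDK1 (41.9 to 53.5 and 34.6 to 52.4) and CCND3 with CDK6 (17.0 to 20.7 and 14.2 to 18.2). The other neighbours did not overlap. The order rests on the length used, and the longest annotated transcript is shorter by unlike amounts. It has 2394 bases beside 5802 exon bases for CCND3, and 1948 beside 3931 for CDK1. The order under that length was not examined. Among all tested genes CCND1 stood at the 98.0th percentile of the length-scaled level, CCNA2 at the 96.5th and CCNE2 at the 37.5th.

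Among the 5 member cyclins tested, CCND1 and CCNA2 together made up most of the length-scaled signal. The mitotic cyclins CCNB1 and CCNB2 are not members and stood at 171 and 71.7 CPM per kilobase. CCND1 took 53.8% ± 1.11 of the 5 cyclins in EV and 52.6% ± 1.71 in KRT19-OVE, and CCNA2 33.0% ± 1.02 and 34.1% ± 0.852 (SD, n = 4 each). Among the 4 kinases, CDK4 took 38.1% ± 2.08 and 36.7% ± 4.36, CDK1 31.1% ± 1.99 and 33.0% ± 3.82, CDK2 18.3% ± 0.878 and 17.8% ± 0.200, and CDK6 12.5% ± 0.793 and 12.5% ± 0.741. The rank of the shares was the same in both groups, and it rests on the same gene length. A share in bulk RNA does not tell fewer cells in a phase of the cycle from less RNA per cell.

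Ratios within a library do not depend on how libraries are scaled. The length-scaled ratio of CCNE1 to CCNE2 was 3.51, 3.98, 5.17 and 3.89 in EV 1 to 4 and 4.05, 3.96, 2.59 and 3.96 in KRT19-OVE 1 to 4. It was highest in EV 3 and lowest in KRT19-OVE 3, with the other 6 libraries between 3.51 and 4.05. The ratio of CDK1 to CDK2 had its lowest value, 1.45, in EV 3 and its highest, 2.19, in KRT19-OVE 3. CCNA2 to CDK2 was 3.27 ± 0.170 in EV and 3.46 ± 0.100 in KRT19-OVE (SD, n = 4 each), and CCND1 to CCND3 was 6.59 ± 0.374 and 6.71 ± 0.867. CDK4 to CDK6 was 3.06 ± 0.358 and 2.97 ± 0.513. The groups overlapped for all 5 ratios.

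**Figure D3:**
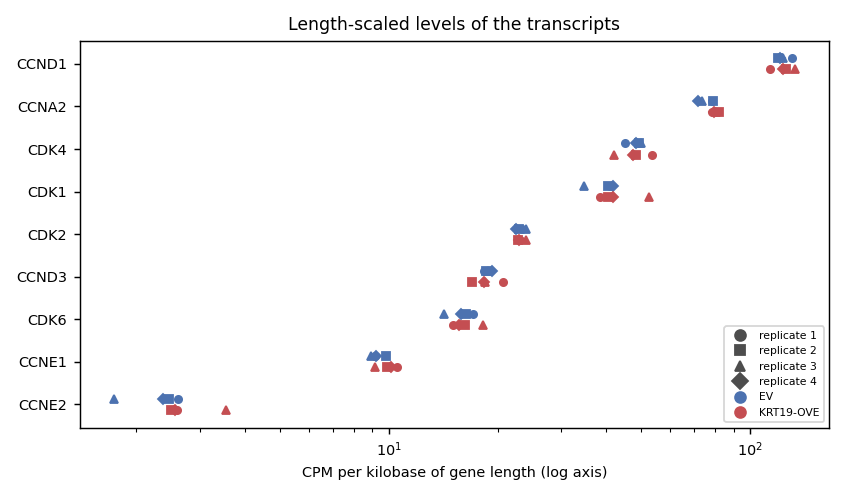
Level of each tested transcript in the 8 libraries in CPM per kilobase of gene length on a log axis (EV blue, upper row; KRT19-OVE red, lower row; marker shape by replicate number). Genes are ordered by their mean, from CCND1 at 123.7 to CCNE2 at 2.54 CPM per kilobase, and EV 3 and KRT19-OVE 3 stand at the ends of the CCNE2 and CDK1 rows.

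The members differed in how much they varied between libraries of the same group. The coefficient of variation within groups was 17.3% for CCNE2 and 11.9% for CDK1, against a median of 9.82% and 5.11% for genes of like level (within 0.5 on the log2 CPM scale). That of CDK2 was 2.36% and that of CCNA2 3.66%, against 5.45% and 4.99%. Counting error alone gives 7.47% for CCNE2, 1.96% for CDK1 and 2.63% for CDK2. The spread of CDK2 was thus as small as its counting error, and that of CDK1 was well above it.

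This spread followed the library. Each value was expressed as its deviation from the mean log2 CPM of its group. In EV 3 the deviations were -0.38 for CCNE2, -0.18 for CDK1 and -0.15 for CDK6, and in KRT19-OVE 3 they were 0.35, 0.29 and 0.16. CDK4 deviated by 0.053 in EV 3 and by -0.18 in KRT19-OVE 3. KRT19-OVE 1 went the other way from KRT19-OVE 3 for CDK1 (-0.16), CDK6 (-0.11) and CDK4 (0.17). CCND3 deviated by 0.16 in KRT19-OVE 1 and by -0.012 in KRT19-OVE 3. Of the 9 members, EV 3 had the lowest value of the 8 libraries for 4, and KRT19-OVE 3 the highest for 4. KRT19-OVE 3 also departed most over all genes with a mean of at least 10 CPM. Its median absolute deviation over these genes was 0.0956, and that of EV 3 was 0.0696.

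In several libraries the deviations followed the GC content of the transcripts. CCNE2 (36.9% GC), CDK1 (37.0%), CDK6 (39.5%) and CCNA2 (42.1%) lie below the median of 47.6% over 9510 genes with a mean of at least 10 CPM, and CCND1 (50.3%), CDK2 (51.5%), CCNE1 (52.9%), CDK4 (53.6%) and CCND3 (56.2%) above it. Over the 9 members, Spearman's rho between GC content and deviation was -0.9 in KRT19-OVE 3 and -0.9 in EV 1, and 0.833 in EV 3 and 0.817 in KRT19-OVE 1. It was 0.667 in KRT19-OVE 4, -0.517 in EV 2, -0.233 in EV 4 and 0.2 in KRT19-OVE 2. Over 9511 genes it was -0.648, -0.489, 0.658 and 0.649 in the first 4 of these libraries, and 0.266, -0.384, 0.0737 and 0.0563 in the last 4. These are descriptions across genes of 1 library, which share its depth and preparation, and the part of GC content in the fold changes above was not tested beyond the removal of its trend.

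Taking the trends with GC content and gene length out of each library made the spread within groups smaller for 7 of 9 members, and the median SD went from 0.087 to 0.065 on the log2 scale. Over the 9511 genes the median SD went from 0.094 to 0.076. For CDK1 the SD went from 0.17 to 0.065, for CDK6 from 0.12 to 0.043 and for CCNE2 from 0.25 to 0.15. The deviation of CDK1 in KRT19-OVE 3 was then 0.098 and that of CCNE2 0.16. CDK2 and CCND1 were the exceptions, with SDs that went from 0.034 to 0.045 and from 0.078 to 0.092. The fold changes under this alternative were 0.066 for CDK1, 0.23 for CCNE2 and 0.059 for CCNA2 on the log2 scale, and all 9 members still had overlapping groups.

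**Figure D4:**
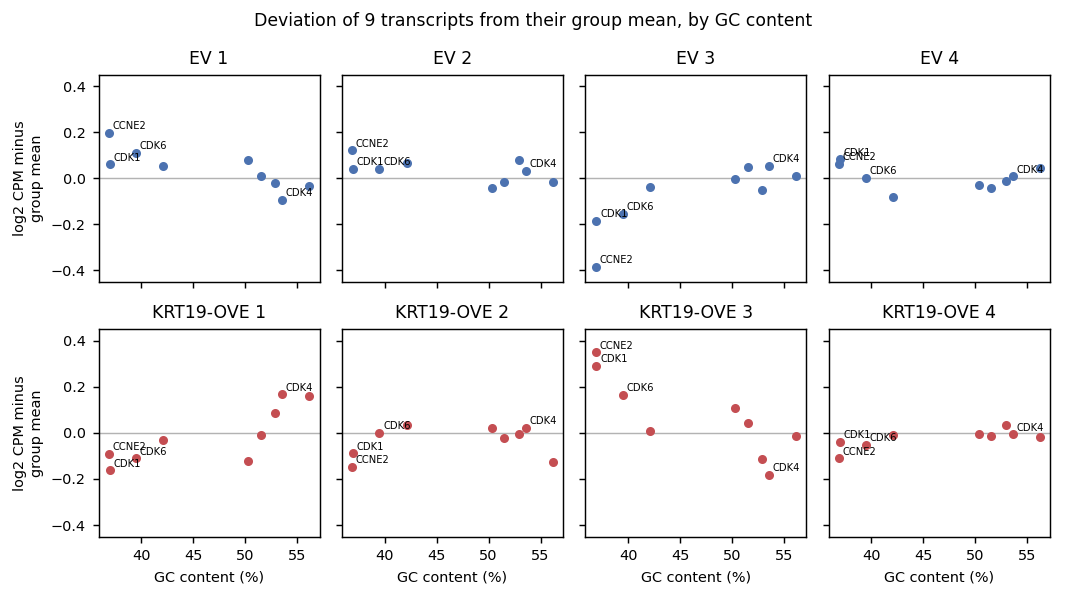
Deviation of each of the 9 tested transcripts from its group mean in log2 CPM (y axis) against the GC content of the gene's longest transcript in percent (x axis), with 1 panel per library and CCNE2, CDK1, CDK6 and CDK4 named. The points fall from left to right in KRT19-OVE 3 and EV 1 (Spearman's rho -0.9 in each) and climb in EV 3 (0.833) and KRT19-OVE 1 (0.817).

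Some members tracked each other across libraries, and those that did so most closely were low in GC content. Over the 8 libraries, Pearson's r of the deviations was 0.93 for CCNE2 with CDK6, 0.91 for CCNE2 with CDK1 and 0.91 for CDK1 with CDK6. Without replicate 3 of both groups these were 0.36, -0.30 and 0.34, and with the trends removed 0.84, 0.67 and 0.46. CCND1 and CDK4, a cyclin and its own kinase, moved opposite to each other, with r = -0.94 over 8 libraries, -0.96 without replicate 3 and -0.96 after removal of the trends. CDK4 was also opposite to CDK1 (-0.86) and to CDK6 (-0.85), with -0.66 and -0.51 after the trends were removed. Of the 36 pairs, 7 had an r beyond 0.8 in either direction, 3 above and 4 below 0, and 5 pairs had one after the trends were removed. CCNE2 with CDK6 and CCND1 with CDK4 were among both. The other 3 of the 5 were CCNA2 with CDK1 (0.20 before and -0.89 after), CDK2 with CDK4 (-0.40 and -0.85) and CCND1 with CDK2 (0.50 and 0.83). No share over all pairs of genes is set beside these counts. They are therefore not shown to be particular to the members.

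The genes most like a member over the 8 libraries were found by Pearson's r of log2 CPM among 9511 genes, for which the median of the highest r of a gene was 0.971. For CDK1 they were CUL5 (0.997), ROCK2 (0.993) and KIF5B (0.992), with 36.6% to 39.9% GC. For CDK6 they were RMI1 (0.993), EFR3A (0.992) and CPSF2 (0.987), with 36.0% to 39.1% GC. CCNE2 was most like FNIP1 (0.987), RPAP3 (0.987) and LRPPRC (0.981), with 35.7% to 42.4% GC. CDK4 was most like IDH3B (0.989), C1QBP (0.989) and PMPCA (0.976), with 50.8% to 54.6% GC. None of these 12 genes is a cyclin or a CDK, and every r above lies close to the median of 0.971 over all genes. GC content was not as close for every member. The 3 nearest genes of CCND1 (50.3% GC) had 44.1% to 54.5%, and those of CDK2 (51.5%) had 46.3% to 47.6%.

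Some counts can hold reads of a neighbour, because the counting is not stated to use strand. TSPAN31 lies opposite 43.2% of the exon bases of CDK4, and its log2 fold change was -0.17 ± 0.090 (SE). INTS8 lies opposite 37.05% of CCNE2 and had 996 to 1249 counts per library, more than the 125 to 265 of CCNE2, and its log2 fold change was 0.075 ± 0.058 (SE). LTO1 covers 10.3% of CCND1 and EXOSC9 9.08% of CCNA2 in the same way. Sense and antisense reads cannot be told apart for these 4 members. The genes opposite 16.8% of CDK2 had at most 52 counts. No tested member shared a word of 75 bases on its own strand with another gene.

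The partners and regulators of these kinases were examined as 6 lists of genes by role, and the values with an SE below are log2 fold changes of KRT19-OVE over EV. The median log2 fold change of all 14621 genes was 0.0051. The share of all tested genes at an unadjusted p under 0.05 was 5.41%, that of genes whose groups did not overlap 3.44% and that of genes above 0 52.2%, and the counts of such small lists are to be read against these. Among the other cyclins of the cell cycle, 0 of 5 tested genes passed at an unadjusted p under 0.05 and the median was -0.0088, or 0.038 without KRT19-OVE 3. CCNB1 and CCNB2, the mitotic cyclins that bind CDK1, stood at -0.0088 ± 0.043 and -0.040 ± 0.044 (SE). CCNB2 was lower in every KRT19-OVE library than in any EV library. In the list of CDK activation, which holds CDC25 phosphatases, WEE1 and PKMYT1, CKS subunits and the CDK-activating kinase, 1 of 10 passed and the median was 0.011, or -0.013 without KRT19-OVE 4. This was CKS2, a small subunit of CDK complexes, at -0.10 ± 0.046 (SE) and lower in all KRT19-OVE libraries. CKS1B stood at 0.0062 ± 0.061 (SE).

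CDK inhibitors had the lowest median of the 6 lists, -0.063, with 1 of 8 above 0. At an unadjusted p under 0.05 there were 2 of 8, both lower in KRT19-OVE. They were CDKN1A, which encodes p21, at -0.17 ± 0.053 (SE, adjusted p = 0.868 in edgeR), and CDKN1B, which encodes p27, at -0.15 ± 0.062 (SE, adjusted p = 0.906). The EV and KRT19-OVE libraries did not overlap for CDKN1A and overlapped for CDKN1B. The study itself singled out CDKN1A on these libraries, so this list is not independent of the data. CDKN3, a phosphatase of CDK1 and CDK2, stood at -0.018 ± 0.053 (SE). In the RB and E2F list 0 of 13 passed and the median was 0.048, or 0.0069 with the GC and length trends removed, with TFDP1 at 0.050 ± 0.049 and E2F4 at 0.020 ± 0.056 (SE). The list of cyclin turnover holds ubiquitin ligase subunits, the conjugating enzyme UBE2C and the ligase inhibitor FBXO5. In it 0 of 12 passed and the median was 0.036, or 0.0019 without KRT19-OVE 1, with UBE2C at -0.025 ± 0.049 and CDC20 at 0.039 ± 0.057 (SE).

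The last list held cyclins and CDKs of transcription and other roles, where 2 of 22 passed and the median was 0.037, or 0.0045 with the trends removed. CCNG2, an atypical cyclin that is high in cells that stop dividing, had a mean of 49.6 ± 1.87 CPM over the EV libraries and 41.0 ± 3.12 CPM over the KRT19-OVE libraries (SD, n = 4 each). Its log2 fold change of -0.27 ± 0.064 (SE) had an adjusted p of 0.489 (edgeR), with no overlap between the groups. The other gene of the list whose groups did not overlap was CCNY, which was higher in KRT19-OVE at 0.072 ± 0.051 (SE) and is named for this after its values were seen. CDK11B, a kinase linked to splicing, stood at 0.14 ± 0.064 (SE), and its counts are uncertain because CDK11A is a near-identical copy. CCNG1 and CCNI, the most abundant of the list per length, stood at 0.052 ± 0.056 and -0.0054 ± 0.054 (SE). No gene of the 6 lists passed the adjusted threshold.

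**Figure D5:**
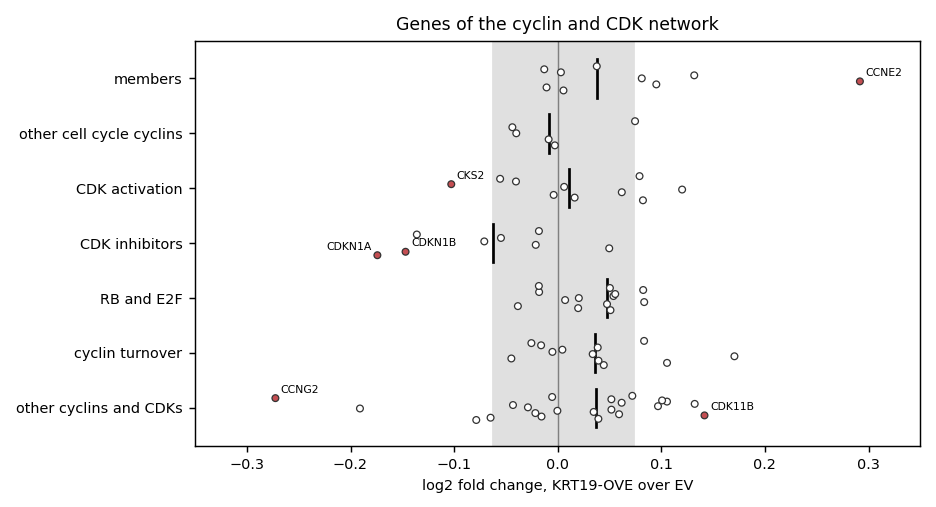
Log2 fold change of KRT19-OVE over EV (x axis) for each tested member and for the tested genes of 6 lists by role, with the median of each list as a black bar, the interquartile range of all 14621 tested genes in grey and genes at an unadjusted p under 0.05 filled and named. The median of the CDK inhibitors is -0.063 and that of the members 0.038, and CCNE2 at 0.29 and CCNG2 at -0.27 lie farthest from 0.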

How the data were processed

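RNA-seq counts were measured in 4 EV and 4 KRT19-OVE libraries of cells labelled A549. The authors deposited raw read counts per gene, not normalized, with 1 column per library and a gene length in bases. The submitters' processing notes name Bowtie 0.12.2, featureCounts 1.5.0-p3, DESeq2 and hg38, with no role given, and the handling of strand and of reads matching several genes is not stated. Groups and replicate numbers came from the sample titles. Genes were kept by filterByExpr, which held at least 99.8% of each library's counts, scaled by TMM, and compared with the quasi-likelihood test of edgeR 4.0.16 in R 4.3.3 (limma 3.58.1 and DESeq2 1.42.0 for alternatives), two-sided, adjusted over 14621 genes by Benjamini-Hochberg. SE is the log2 fold change over the root of the F statistic. Log2 CPM used a prior count of 2. GC and length trends were natural splines with 5 degrees of freedom per library. GC content, overlaps and shared words came from GENCODE 29, which held all 58735 genes with the same start and end. The GC content of a gene was that of its longest transcript. The edgeR fit was also run on simulated counts, with results that are not given here.

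Members and lists were chosen with earlier results of these data known. All members are named. Of each list, the 2 genes with the most counts per kilobase and those at an unadjusted p under 0.05 are named, as are the 3 genes most like each of 4 members (mean of at least 10 CPM). Correlations are given without p. Alternatives were other scalings, tools and filters, the replicate number as a block, trend removal, KRT19 and mitochondrial genes left out of library sizes, and libraries left out. Same-numbered libraries were not treated as pairs.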

Additional observations from a re-analysis of the deposited data

Results flagged for a closer look

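In 28 groups of 4 values (the log2 CPM of each tested member and the log2 ratios between members, in each group), the highest or lowest library's gap to its nearest neighbour was divided by the range of the group and compared with Dixon's critical value for 4 values. Chance gives about 1.4 such groups of 28, and 3 were found. CCNE2 in KRT19-OVE 3 was 3.97 on the log2 CPM scale, and the other libraries of its group 3.47 to 3.53 (gap over range 0.883). CDK1 in EV 3 stood at 7.09 log2 CPM, against 7.31 to 7.36 (0.841). The log2 ratio of CCNE1 to CCNE2 in KRT19-OVE 3 was 1.37, against 1.98 to 2.02 (0.947), and it shares its CCNE2 counts with the first. Spearman's rho between GC content and deviation over 9511 genes was -0.648 in KRT19-OVE 3 and 0.658 in EV 3, and 0.649 in KRT19-OVE 1, where no value was found by this comparison.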

How the results depend on the processing

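No member passed the adjusted threshold under any alternative run. Log2 fold changes above 0 were 7 of 9, and 5 of 9 with upper-quartile factors, without EV 2, without KRT19-OVE 3 and without replicate 3 of both groups, 6 of 9 with limma-voom, without EV 4 and with the block and the trends removed, and 8 of 9 with the trends removed. Small fold changes of CCND1, CCND3, CDK2, CDK4 and CDK6 changed sign, and the cause was not tested. CCND1 (0.0055) was -0.0066 with upper-quartile factors and -4.8e-05 with limma-voom. Here and below limma-voom was run with sample quality weights, so the tool and the weights changed together. CCND3 (-0.011) was 0.00037 and CDK4 (-0.013) 0.00076 with GC and length trends removed, and CDK4 was 0.0027 with limma-voom. CDK2 (0.0030) was -0.0089 with upper-quartile factors. CDK6 (0.038) was -0.0059 with limma-voom, -0.0030 with the trends removed and -0.0029 with the replicate block and the trends removed. Without EV replicate 3 and without KRT19-OVE replicate 3 (chosen after seeing the data), CCND1 was -0.034, CDK1 -0.033, CDK4 0.063 and CDK6 -0.070. Leaving out each library in turn gave -0.032 to 0.045 for CCND1, -0.067 to 0.030 for CCND3, 0.065 to 0.13 for CCNE1, 0.16 to 0.36 for CCNE2, 0.055 to 0.10 for CCNA2, 0.024 to 0.19 for CDK1, -0.012 to 0.019 for CDK2, -0.072 to 0.046 for CDK4 and -0.020 to 0.075 for CDK6. CCNE1, CCNE2 and CCNA2 kept their direction in all 19 alternatives.

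The number of members at an unadjusted p under 0.05 was 1, and 2 with the loose filter (CCNE2 and CDK1). It was 0 with upper-quartile factors, 0 with the strict filter and 0 without replicate 3 of both groups. Leaving out each library in turn gave 0 to 2, with 0 without EV 3, EV 4 or KRT19-OVE 3 and 2 without KRT19-OVE 1. With limma-voom the 1 member was CCNA2, and the fold changes of CCNE2 and CDK1 were 0.17 and 0.046. Over all genes, 1 passed the adjusted threshold, and 5 with DESeq2, 8 with limma-voom, 71 with the loose filter, 5 with the trends removed, 8 without replicate 3 of both groups and 1 to 5 without single libraries. At an unadjusted p there were 791, and 1337 with limma-voom, 1559 with the loose filter, 1219 with the trends removed, 1193 without replicate 3 of both groups, and 620 to 1228 without single libraries. The medians of the lists moved too. That of the RB and E2F genes was 0.0069 and that of the other cyclins and CDKs 0.0045 with the trends removed, and the latter was -0.0021 without replicate 3 of both groups. Cyclin turnover was at 0.0019 without KRT19-OVE 1, CDK activation at -0.013 without KRT19-OVE 4, and the other cell cycle cyclins at 0.038 without KRT19-OVE 3. The CDK inhibitors stayed between -0.085 and -0.051 in the alternatives run.

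With the replicate number as a block, 0 members passed at an unadjusted p (CCNE2 had a log2 fold change of 0.29), also with the trends removed, and 451 genes did (978 with the trends removed, where 4 passed the adjusted threshold). No source pairs the libraries. The correlation of deviations between same-numbered libraries over 9511 genes was -0.319, -0.121, -0.493 and 0.302, and of the 8 libraries EV 4 and KRT19-OVE 4 alone matched their own number best.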
